A study of Mus musculus with 4 samples.

Results

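Among the cells of the embryonic mouse medial ganglionic eminence (MGE), a small and sharply separated set of barcodes was filled with hemoglobin RNA. These erythroid cells were taken as the barcodes with at least 2000 unique molecular identifiers (UMIs, each standing for 1 captured RNA molecule), at most 10% of UMIs from mitochondrially encoded genes and at least 20% of UMIs from 7 globin genes (Hba-a1, Hba-a2, Hba-x, Hbb-bs, Hbb-bt, Hbb-y and Hbb-bh1). By this rule 173 of 21232 eligible barcodes (0.815%) were erythroid. The members were chosen by their globin UMIs, so their globin content against the other barcodes, and any gene that parts them from those, is given as a description with no test.

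The MGE, a progenitor zone of the ventral forebrain, was microdissected at e14.5 from littermates of a cross between St18 heterozygotes on a C57/BL6 ICR mix. Genotyped embryos were pooled by genotype and dissociated, and 2 droplet (10x Genomics) libraries were made from St18(-/-) tissue, lacking the transcription factor St18 in the whole animal, and 2 from St18(+/+) tissue, called WT. The null allele came from a floxed St18 allele recombined in the germline with E2a-Cre. The number and sex of the pooled embryos were not stated. The study describes the libraries of a genotype as biological replicates, but how embryos were divided among them was not stated, and p-values between genotypes measure the spread between these libraries.

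The libraries held 70991150 to 92984713 UMIs and 4456 to 7217 eligible barcodes each. St18 transcript in the eligible barcodes outside the erythroid set was 0.196 and 0.589 UMIs per 10000 non-globin UMIs in the pair of libraries labelled null, while the pair labelled WT had 0.366 and 0.479. In this order the libraries are called null 1, null 2, WT 1 and WT 2. The library called null 2 thus held the highest St18 level. The recombined allele loses internal exons and can still give transcript, and tags from the end of the transcript can lie outside those exons, so this level does not check the label. In erythroid barcodes St18 gave 1, 0, 2 and 0 UMIs. Xist and Y-linked genes, 5 in all, summed to 7.19, 14.8, 1.71 and 1.66 per 10000 in the eligible barcodes outside the set. The libraries thus differed in sex-linked RNA along with genotype, which cannot be told apart from genotype when null is compared with WT. No erythroid barcode sequence was shared between libraries, and 5 to 12 other eligible barcodes were shared by each pair of libraries.

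Red blood cells arise in the mouse embryo in successive waves. Cells of the first wave form in the yolk sac, circulate while nucleated, and carry embryonic hemoglobins built from Hba-x (zeta), Hbb-y (epsilon-y) and Hbb-bh1 (beta-h1) as well as adult alpha chains. Cells of later waves form mainly in the fetal liver, carry Hba-a1, Hba-a2, Hbb-bs and Hbb-bt, and lose their nuclei before they circulate. Maturing red cells make heme from glycine by a chain of enzymes that starts with Alas2, build a membrane skeleton of spectrin and band 3, and discard organelles and most other RNA.

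Since the members differed in which globins they used, the 250 bases before the RefSeq start of 5 of these genes are shown, read on the coding strand of GRCm38.p6. They are the embryonic Hbb-y at chr7:103853208-103853457 (minus strand), the adult Hbb-bs at chr7:103827929-103828178 (minus) and Hbb-bt at chr7:103813924-103814173 (minus), the embryonic Hba-x at chr11:32276350-32276599 (plus) and the adult Hba-a1 at chr11:32283422-32283671 (plus). Capitals mark 4 motifs on either strand. They are the motif CACCC (bound by factors such as Klf1), the CCAAT box, the GATAA motif of GATA factors and the TATA box letters TATAA. In Hbb-bt an inverted and a direct CCAAT abut.

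Hbb-y: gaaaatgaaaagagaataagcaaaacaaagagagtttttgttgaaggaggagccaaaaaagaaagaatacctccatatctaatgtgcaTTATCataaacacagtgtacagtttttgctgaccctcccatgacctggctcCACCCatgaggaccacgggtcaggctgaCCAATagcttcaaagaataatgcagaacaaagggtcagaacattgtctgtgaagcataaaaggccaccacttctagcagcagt
Hbb-bs: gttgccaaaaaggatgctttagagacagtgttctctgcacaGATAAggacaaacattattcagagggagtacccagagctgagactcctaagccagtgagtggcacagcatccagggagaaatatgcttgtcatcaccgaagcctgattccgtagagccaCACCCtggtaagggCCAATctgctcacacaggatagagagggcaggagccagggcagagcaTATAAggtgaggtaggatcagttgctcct
Hbb-bt: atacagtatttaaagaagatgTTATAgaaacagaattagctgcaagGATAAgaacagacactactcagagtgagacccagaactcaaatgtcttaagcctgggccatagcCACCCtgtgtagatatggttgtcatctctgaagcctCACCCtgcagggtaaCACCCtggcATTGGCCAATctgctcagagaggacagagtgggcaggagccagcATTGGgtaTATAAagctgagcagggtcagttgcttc
Hba-x: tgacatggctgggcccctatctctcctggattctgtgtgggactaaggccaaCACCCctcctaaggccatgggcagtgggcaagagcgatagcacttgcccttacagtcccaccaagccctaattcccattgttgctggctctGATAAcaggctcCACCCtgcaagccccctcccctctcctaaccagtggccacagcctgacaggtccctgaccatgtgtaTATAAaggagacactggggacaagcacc
Hba-a1: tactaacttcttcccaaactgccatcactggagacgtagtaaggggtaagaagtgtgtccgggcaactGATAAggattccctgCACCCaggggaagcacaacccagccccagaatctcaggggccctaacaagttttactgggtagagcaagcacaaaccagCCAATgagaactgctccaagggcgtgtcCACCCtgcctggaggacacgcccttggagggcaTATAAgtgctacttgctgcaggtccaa

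All 5 windows held CACCC and GATAA. The motif CCAAT was found in each but that of Hba-x, and TATAA in each but that of Hbb-y. Of 32851 windows of the same length before RefSeq starts, 52.0% held CACCC, 33.8% CCAAT, 22.6% GATAA and 22.8% TATAA, and 0.968% held all 4, as did those of Hbb-bs, Hbb-bt and Hba-a1. TATAA lay 29, 28, 28 and 27 bases before the start in Hbb-bs, Hbb-bt, Hba-x and Hba-a1. These matches describe the letters alone.

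The erythroid set numbered 55 and 41 barcodes in the libraries labelled null and 42 and 35 in WT. These were 0.762% (95% exact Clopper-Pearson interval 0.575 to 0.991) and 0.920% (0.661 to 1.25) of eligible barcodes in null, and 0.836% (0.603 to 1.13) and 0.772% (0.538 to 1.07) in WT, so that the groups overlapped. The means were 0.841% ± 0.112 (SD, n = 2) and 0.804% ± 0.0449 (SD, n = 2), with p = 1 in a two-sided exact permutation test that cannot go below 0.333 with 2 libraries against 2. The intervals cover counting error only.

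Globin dominated the RNA of these barcodes. The median globin share of UMIs was 88.2%, 89.4%, 89.8% and 90.9% in null 1, null 2, WT 1 and WT 2, and 144 of the 173 members reached at least 80%. The member nearest the 20% threshold had 28.3%, and the highest barcode outside had 12.2%. Members were deeper than the other barcodes, at a median of 9887, 11807, 13003 and 13685 UMIs against 6684.5, 8664, 5982 and 5840, but held RNA of only 410.5 to 469 genes at the median. Mitochondrially encoded RNA took a median 0.238% to 0.431% of their UMIs and 3.59% to 4.49% in other barcodes. Of 10000 non-globin UMIs, mitochondrially encoded genes made 419, 336, 567 and 556 in members and 425, 448, 359 and 373 in the others. Without the 6 members holding endothelial or mural UMIs, described below, the members' values were 419, 343, 288 and 328, so that WT 1 and WT 2 moved from above the other barcodes to under them.

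**Figure D1:**
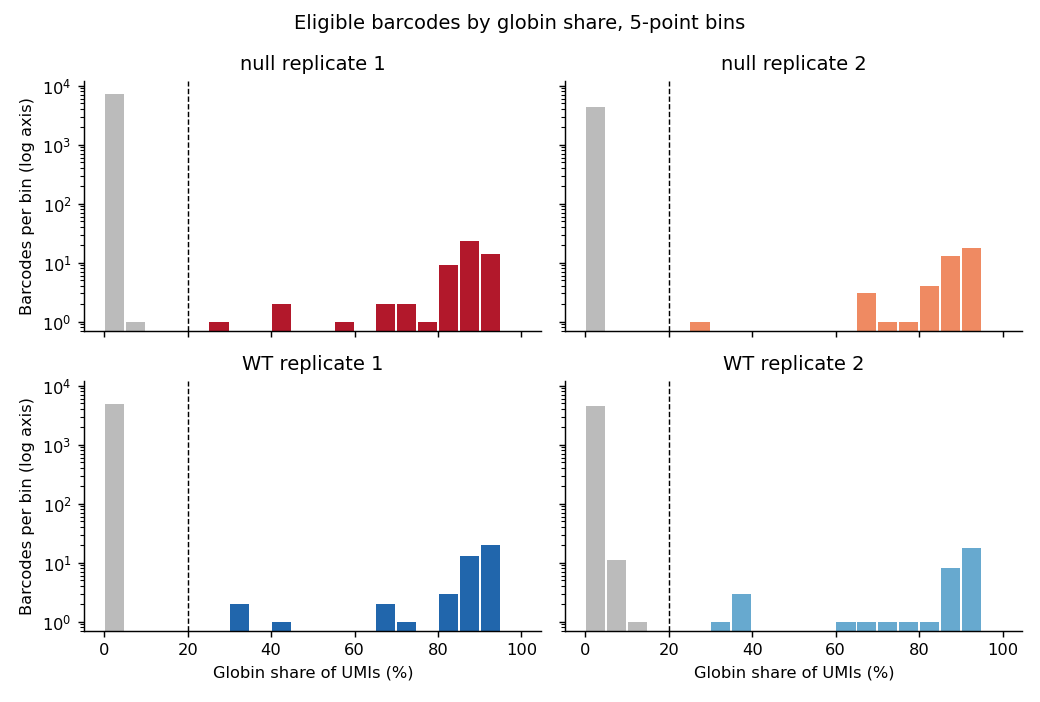
Histograms of the share of UMIs from the 7 globins (x axis, in 5-point bins) against the number of eligible barcodes (y axis, log scale) in each library, with a dashed line at the 20% threshold. Erythroid barcodes (colored) pile up between 80% and 95%, and in WT replicate 2 a further 12 barcodes outside the set lie between 5.57% and 12.2%.

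Globin RNA was also found outside the members. Droplets with under 100 UMIs, which hold mostly free RNA, gave 0.471%, 0.720%, 0.718% and 0.788% of UMIs to globin in null 1, null 2, WT 1 and WT 2. In the other eligible barcodes the share was 0.00919%, 0.00895%, 0.0109% and 0.0468%. Without the barcodes at 5% to 20% globin the last of these was 0.00889%, and that of null 1 0.00796%.

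A subset of members stood apart. The 11 members with under 50% globin (3, 1, 3 and 4 per library) held a median of 10434 non-globin UMIs and 3282 genes, against 1041 and 436.5 in the other 162. They supplied 32.7%, 3.76%, 32.9% and 62.4% of all non-globin UMIs of the members in null 1, null 2, WT 1 and WT 2. A single barcode of WT 2, with 66448 UMIs, gave 36.1% of the non-globin UMIs of its library's members.

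Markers of blood vessel cells were concentrated in 6 members, 4 of them among these 11. At least 3 UMIs of 6 endothelial (Cldn5, Pecam1, Cdh5, Kdr, Flt1, Esam) and 4 mural markers (Pdgfrb, Rgs5, Kcnj8, Cspg4) were seen in 0, 1, 3 and 2 members, which held 0%, 3.64%, 46.4% and 44.9% of the members' non-globin UMIs. All 6 endothelial and 4 mural markers had at least 10 UMIs over the members. Of other blood cells, 8 microglial markers gave 0, 2, 0 and 0 UMIs, 5 platelet markers 0, 0, 2 and 3 and 4 leukocyte markers 0, and neuronal markers were under their level in the other barcodes in all 4 libraries (7 of 7 with at least 10 UMIs). No doublet caller was run, so members that might hold a second cell were kept, and the tests across genes are also given without these 6.

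The members split into 2 ranges by their beta-like globins, with little between. The share of Hbb-y and Hbb-bh1 in the UMIs of the 4 beta-like globins was under 1% in 146 members and at least 80% in 24. A further member had 74.7%, and only 2 lay between 5% and 70%, at 11.96% in WT 1 and 40.6% in WT 2, both with endothelial or mural UMIs. With a line at 50%, 7, 7, 6 and 5 members of null 1, null 2, WT 1 and WT 2 fell in an embryonic class (25 in all) and 48, 34, 36 and 30 in an adult class (148). The classes are ranges of a score and not cell types.

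Within the embryonic class Hbb-y was the main beta-like globin. It made 91.7%, 89.7%, 84.9% and 88.5% of beta-like UMIs in null 1, null 2, WT 1 and WT 2, beside 5.63% to 8.36% of Hbb-bs and 2.48% to 5.70% of Hbb-bt. Hbb-bh1 was scarce, at 0.182%, 0.0446%, 1.08% and 0.423% (58, 17, 428 and 90 UMIs). A single member supplied 84.6% of the Hbb-bh1 UMIs of this class in WT 1, so its high value there was that of 1 barcode. The alpha side was mixed as well, with 26.4%, 23.6%, 23.1% and 20.3% of alpha-like UMIs from Hba-x and the rest from Hba-a1 and Hba-a2. Members rich in embryonic beta-like globin therefore carried mostly adult alpha-like RNA in each library.

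The adult class held almost no embryonic globin. Hbb-bs made 72.1%, 77.6%, 70.6% and 67.8% and Hbb-bt 27.9%, 22.4%, 29.3% and 29.1% of its beta-like UMIs. Hbb-y reached 3.04% there in WT 2, where the member at 40.6% lay, and at most 0.117% in the other libraries. Of all Hbb-y UMIs in members, 99.99%, 99.97%, 99.1% and 73.2% were in the embryonic class.

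The 2 adult beta globins varied far more from cell to cell than the 2 adult alpha globins. Over the 148 members of the adult class, Hbb-bt made 3.36% to 39.3% of the UMIs of Hbb-bs and Hbb-bt together, with 13 members under 10% and 42 between 30% and 40%. The library medians of this share were 27.0%, 20.5%, 28.7% and 28.8%. The 13 members under 10% held 2080 to 9128 UMIs, each fewer than the adult-class median of its library (9951, 12074.5, 13003 and 13746.5). The part of depth in this spread was not tested. Hba-a2 made 39.9% to 51.2% of the UMIs of Hba-a1 and Hba-a2, with medians of 44.9% to 45.5%. The chi-square statistic per degree of freedom, which is near 1 for counting error alone, was 96.5, 181, 166 and 119 for the beta pair and 3.52, 3.67, 5.88 and 6.49 for the alpha pair. The split within a pair is uncertain, since 65.2% of the 60-base stretches of the Hbb-bs transcript also occur in Hbb-bt and 65.5% of those of Hba-a1 in Hba-a2.

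**Figure D2:**
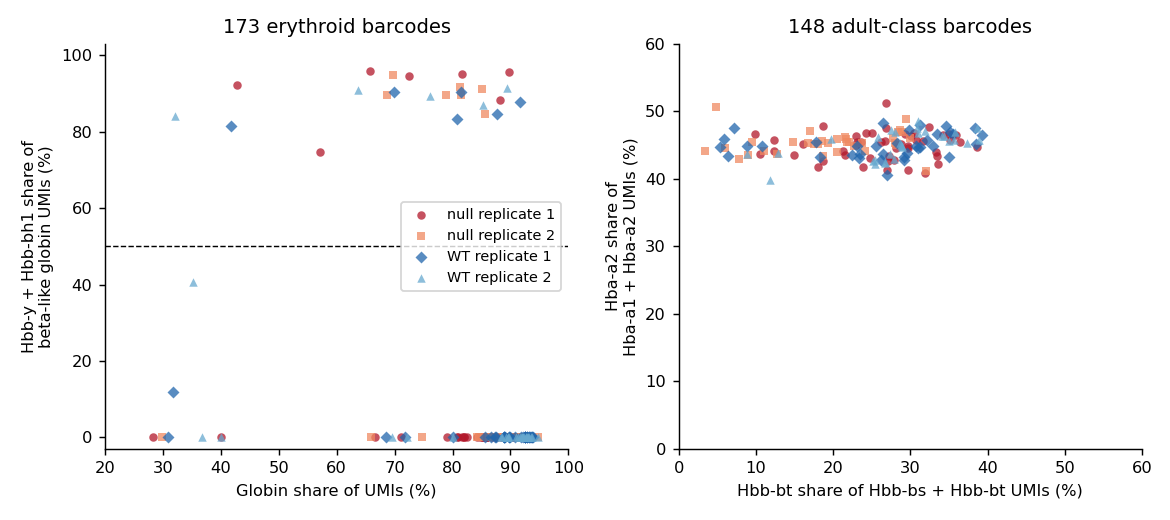
Left, each of the 173 erythroid barcodes by its globin share of UMIs (x axis, %) and the Hbb-y and Hbb-bh1 share of its beta-like UMIs (y axis, %), with the class line at 50%; 2 members lie between 5% and 70%. Right, each of the 148 adult-class barcodes by its Hbb-bt share of adult beta UMIs (x axis, 3.36% to 39.3%) and its Hba-a2 share of adult alpha UMIs (y axis, 39.9% to 51.2%).

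The embryonic share of all globin UMIs overlapped between the genotypes. Hbb-y, Hbb-bh1 and Hba-x together made 7.74% and 8.92% in null and 8.78% and 7.60% in WT (means 8.33% ± 0.835 and 8.19% ± 0.833, SD, n = 2 each; two-sided exact permutation p = 0.667, where the test cannot go below 0.333 and so cannot call a difference). The share of members in the embryonic class was 12.7%, 17.1%, 14.3% and 14.3% (exact permutation p = 1). Free RNA in droplets under 100 UMIs had an embryonic share of 13.5%, 15.9%, 5.54% and 14.8%, above that of the members in null 1, null 2 and WT 2 and below it in WT 1.

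The balance of alpha-like and beta-like globin did not overlap between genotypes. Alpha-like genes made 31.5% and 33.0% of globin UMIs in the libraries labelled null and 37.3% and 37.1% in WT (means 32.3% ± 1.05 and 37.2% ± 0.131, SD, n = 2 each). In the adult class alone the values were 31.7% and 33.3% against 37.0% and 36.4%. The exact permutation p was 0.333 for each, the smallest that 2 against 2 allows, so this test cannot call the difference. The free RNA of the same libraries had 33.5% and 37.1% against 36.8% and 37.8%, which overlapped. The pooled Hbb-bt share of adult beta UMIs was 27.9% and 22.4% in null and 29.3% and 30.05% in WT, again without overlap and with an exact permutation p = 0.333. The difference was -4.56 percentage points, -7.34 without null 1 and -1.78 without null 2.

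**Figure D3:**
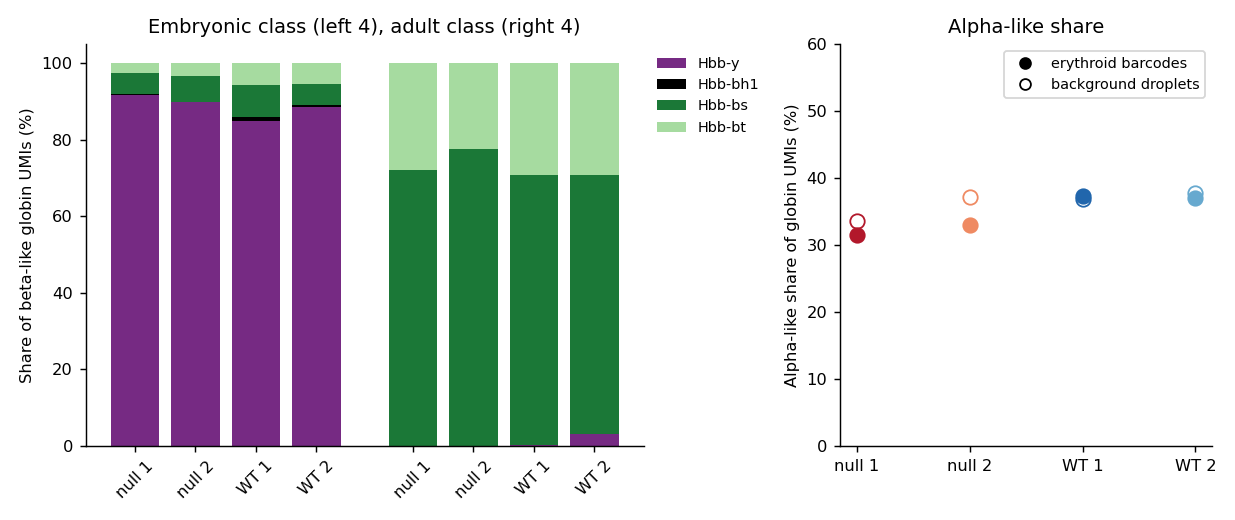
Left, stacked bars of the share of beta-like UMIs (y axis, %) from each of the 4 beta-like globins in the embryonic class (left 4 bars) and the adult class (right 4 bars) of each library. Right, the alpha-like share of globin UMIs (y axis, %) by library in erythroid barcodes (filled points, 31.5% to 37.3%) and in droplets with under 100 UMIs (open points, 33.5% to 37.8%).

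Beside globin, the members carried the RNA of the red cell program. All levels from here on are UMIs per 10000 UMIs outside the 7 globins, so that globin content does not set the scale. Of 4206 genes with at least 10 UMIs over the members, 224 (5.33%) were at least 2-fold higher than in the other eligible barcodes in all 4 libraries. Of the genes in lists of known red cell functions that had as many UMIs, 6 of 8 for heme synthesis met this, 5 of 6 for iron handling, 5 of 6 erythroid transcription factors, 11 of 12 for the membrane skeleton, 7 of 8 for redox and gas metabolism and 7 of 8 for late maturation. The contrast is that of the rule, so nothing is read from these shares.

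Alas2, the first enzyme of heme synthesis in red cells, was at 39.7, 43.0, 25.6 and 16.2 in null 1, null 2, WT 1 and WT 2, and at 0.00230 to 0.00386 in the other barcodes. Slc4a1, the anion exchanger band 3, was at 5.94, 8.95, 5.33 and 7.13. In the other barcodes it was at 0.000683 or less. Blvrb, which reduces biliverdin, was at 30.8, 33.9, 32.7 and 20.1.

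Both ferritin chains were higher in members than in the other barcodes in each library. Ftl1, the ferritin light chain, was at 347, 431, 243 and 219, and Fth1, the heavy chain, at 263, 384, 226 and 180, against 27.4 to 35.7 and 7.28 to 9.44 in the other barcodes. Slc25a37, the mitochondrial iron carrier mitoferrin, was at 31.1, 36.3, 14.7 and 15.0. These compare each gene with itself across barcodes, since UMI levels of different genes also depend on capture.

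The transcription factors of the lineage were near the limit of detection. Klf1, a factor that activates adult beta globin, gave 19 UMIs in all members, and Tal1, a factor of early blood formation, gave 21. Zfpm1, a partner of GATA factors, was at 0.742, 1.03, 0.762 and 1.09, and Lmo2, which bridges these factors, at 0.848, 0.517, 1.63 and 1.59. Single members weighed on the WT values. In the adult class of WT 2, 1 member gave 12 of 19 Lmo2 UMIs and 1 member gave 10 of 12 Zfpm1 UMIs. In that of WT 1, 1 member gave 6 of 12 Lmo2 UMIs. Gata1 gave 1 UMI, and Gfi1b, Ikzf1, Aqp1, Trim58, Alox15, Spi1, Gata2 and Runx1 gave under 3 UMIs each. Of the early progenitor genes, Kit and Epor gave 4 UMIs each. Cd34, also a gene of endothelial cells, was at 0, 0.172, 2.29 and 1.34, and at 0, 0, 0.406 and 0 without the 6 members holding endothelial or mural UMIs.

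Of the genes linked to globin switching, the 3 with at least 10 UMIs were lower in members than in other barcodes in every library. Bcl11a, a repressor of embryonic and fetal beta-like globin in red cells and also a gene of forebrain neurons, was at 1.06, 1.03, 1.31 and 1.17 against 4.597, 5.34, 3.98 and 4.32. Sox6, which acts with it, was at 1.06, 1.21, 0.435 and 0.503 against 2.13, 2.54, 1.82 and 1.87. Igf2bp1, an RNA-binding protein of fetal cells, was at 0.742, 0.344, 0.435 and 0.503 against 0.968, 1.003, 0.679 and 0.680.

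Of 530 genes with at least 10 UMIs in the members of each library, listed genes included, 39 (7.36%) were at least 10-fold higher than in the other barcodes in all 4. Outside the lists, Tent5c, a poly(A) polymerase, was at 9.33, 10.7, 5.55 and 3.02, which was 958-, 1381-, 566- and 402-fold the level in the other barcodes. Among the others of the 12 unlisted genes with the largest smallest-library fold were Hsd3b6, Cfap57, Tuba4a, Rec114, Tspo2, Plaat3, Creg1, Fam210b and Chchd10, at 1.09 to 10.6 in single libraries.

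The embryonic and adult classes differed in many genes that did not define them. Named genes of heme synthesis, the membrane and redox metabolism, such as Alas2, Slc4a1 and Gpx1, were lower in members rich in embryonic globin, while ferritin heavy chain, Malat1 and a few genes such as Hsd3b6 were higher. With UMIs summed per library and class and the library as a block, edgeR's quasi-likelihood test called 77 of 387 genes (19.9%) at a Benjamini-Hochberg adjusted p of 0.05, of which 25 (6.46%) were higher and 52 (13.4%) lower in the embryonic class. The median log2 change of all 387 was -0.06. The low-count filter shaped this split, since 114 of the 387 genes passed it through the adult class alone, of which 41 were lower and none higher, and 19 through the embryonic class alone, of which 6 were higher and none lower. Of the 184 that passed in both classes 19 were higher and 10 lower. Of the genes named above, Gpx1, ferritin heavy chain and Malat1 passed in both classes. Alas2 and Slc4a1 passed through the adult class alone and Hsd3b6 through the embryonic class alone, so that the filter favored their direction. Both classes come from the same 4 libraries. Changes below are log2 of embryonic over adult with the standard error (SE) and the adjusted p of this test. Levels below are sums over a class, so that single large members weigh on them. In the embryonic class a single member held 7684 of 15951 non-globin UMIs in null 1 and 17465 of 27494 in WT 1. For WT 2 this was 9736 of 18020, and for null 2 at most 2987 of 13713. In the adult class of WT 2 a single member held 43052 of 101191.

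Of the 11 genes of the heme synthesis list 3 were tested, Alas2, Fech and Urod. Each passed the filter through the adult class alone, where it is high, so that their falls do not describe the list. Alas2 was at 8.78, 10.2, 4.36 and 1.66 in the embryonic class of null 1, null 2, WT 1 and WT 2, and at 46.0, 53.2, 34.6 and 18.8 in the adult class, lower in 4 of 4 libraries. Its log2 change was -2.58 (SE 0.35, edgeR adjusted p = 1.95e-07). With only members of at least 50% globin, Alas2 was at 12.1, 10.2, 8.97 and 2.41 against 63.8, 55.9, 42.8 and 44.8. Fech, which inserts iron into heme, was at 2.51, 2.19, 1.45 and 1.66 against 15.4, 16.7, 7.46 and 6.72 (log2 change -2.37, edgeR adjusted p = 1.58e-05). Urod, an earlier enzyme of the path, gave 2 UMIs in the embryonic class and 126 in the adult class (log2 change -3.92, edgeR adjusted p = 1.68e-04).

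Of 18 membrane genes 3 were tested, again through the adult class alone, and fell. Slc4a1 was at 1.88, 1.46, 1.09 and 1.11 against 6.77, 11.3, 7.14 and 8.20 (log2 change -2.46, edgeR adjusted p = 4.44e-05). Epb41, the skeleton protein 4.1, changed by -1.91 (SE 0.36, edgeR adjusted p = 5.53e-05). It was at 5.64, 5.10, 2.55 and 3.33 against 22.1, 25.7, 14.6 and 7.41. The levels of both did not overlap between classes in the 4 libraries.

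Of 9 genes of redox and gas metabolism 5 were tested. Of the 3 that passed the filter in both classes, 2 fell, Gpx1 and Prdx2, and Bpgm and Car2, which passed through the adult class alone, fell too. Gpx1, a glutathione peroxidase, was at 15.7, 4.38, 24.0 and 8.32 against 93.3, 114, 115 and 47.2 (log2 change -2.75, edgeR adjusted p = 3.33e-08). Bpgm, which makes the 2,3-bisphosphoglycerate that lowers the oxygen affinity of hemoglobin, was at 2.51, 5.10, 2.55 and 8.88 against 46.5, 58.6, 34.5 and 17.2 (log2 change -2.85, edgeR adjusted p = 3.73e-07). Prdx2, a peroxiredoxin, changed less, by -1.17 (SE 0.28, edgeR adjusted p = 0.00145), and Car2, a carbonic anhydrase, was the fourth that fell. In each of these genes the embryonic class was below the adult class in 4 of 4 libraries.

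Of 11 late maturation genes 2 were tested, Mkrn1 through the adult class alone and Bnip3l in both. Mkrn1, a ubiquitin ligase, was at 1.25, 5.83, 3.27 and 0.555 against 77.0, 124, 73.2 and 38.2 (log2 change -4.74, SE 0.41, edgeR adjusted p = 3.14e-12). Bnip3l, a receptor for the removal of mitochondria, changed by -1.34 (SE 0.33, edgeR adjusted p = 0.00174), and missed the threshold without null 2.

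Of the 8 genes of iron handling, Ftl1 and Fth1 passed the low-count filter in both classes. Slc25a37 passed it through the adult class alone, where it is high, so that its fall does not describe the list. Slc25a37 fell, from 37.0, 46.9, 20.8 and 17.7 in the adult class to 1.88, 2.19, 0.364 and 0 in the embryonic class (log2 change -4.78, SE 0.47, edgeR adjusted p = 1.53e-10). Fth1 rose, from 216, 290, 202 and 166 to 495, 690, 283 and 259 (log2 change 1.002, SE 0.25, edgeR adjusted p = 0.00217), and missed the threshold in 4 of 15 alternatives, among them without null 1 or without null 2. Ftl1 was at 387, 429, 195 and 324 in the embryonic class and at 339, 431, 264 and 200 in the adult class, which overlap (log2 change 0.22, edgeR adjusted p = 0.609).

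The sharpest gains were in genes seldom met in the adult class. Hsd3b6 and Pdzk1ip1 passed the low-count filter through the embryonic class alone, where they are high, so that the filter favored a gain. Hsd3b6, a steroid dehydrogenase, was at 16.9, 23.3, 5.82 and 3.88 in the embryonic class and at 0.383, 0.225, 0 and 0.889 in the adult class (log2 change 4.69, SE 0.55, edgeR adjusted p = 1.10e-08). It gave UMIs in 16 of 25 members of the first and 3 of 148 of the second. Pdzk1ip1, a small membrane protein, was at 3.76, 3.65, 4.73 and 12.8 against 0.383, 0, 0 and 0.791 (log2 change 4.28, edgeR adjusted p = 2.61e-06). Its gene at chr4:115088708-115093899 lies next to Tal1 at chr4:115056426-115071755, a neighborhood looked up after the values were seen. Tal1, too sparse to be tested, gave 14 of its 21 UMIs in the embryonic class, in 9 of 25 members against 4 of 148.

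Malat1, a long noncoding RNA kept in the nucleus, was detected in all 25 members of the embryonic class and in 125 of 148 of the adult class. Its level was 295, 365, 161 and 281 against 102, 58.4, 57.5 and 57.4 (log2 change 2.09, SE 0.28, edgeR adjusted p = 1.95e-07), and in the other eligible barcodes 156 to 194. The remaining genes with the largest gains in all 4 libraries were Atf4, a stress-response factor (log2 change 3.43), Nudt4, an inositol phosphate hydrolase (2.64), Rsrp1 (2.32), Selenow, a selenoprotein (2.08), Gabarap, of autophagosomes (1.71), Smdt1, of the mitochondrial calcium uniporter (1.53), and Cfap57 (1.52). Atf4, Rsrp1 and Cfap57 passed the low-count filter through the embryonic class alone, where they are high. Of 15 alternatives Cfap57 missed the threshold in 6, among them without null 1, without null 2 or without WT 2, Smdt1 in 2, among them without null 2, and Rsrp1 and Gabarap in 1, with no low-count filter.

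Other falls were in genes outside the lists. Plaat3, Adipor1, March2 and Cmas passed the low-count filter through the adult class alone, where they are high, so that the filter favored a fall. Plaat3, a phospholipase, gave 0 UMIs in the embryonic class and 109 in 49 members of the adult class, at least 9.47-fold higher there against a floor of 3 UMIs over the class. Adipor1, an adiponectin receptor (log2 change -3.68), March2, a membrane ubiquitin ligase (-3.51), and Cmas, of sialic acid synthesis (-3.48), were called as well. March2 gave UMIs in 5 of 25 members of the embryonic class and 115 of 148 of the adult class. Urod, Adipor1 and Cmas missed the threshold without null 2.

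**Figure D4:**
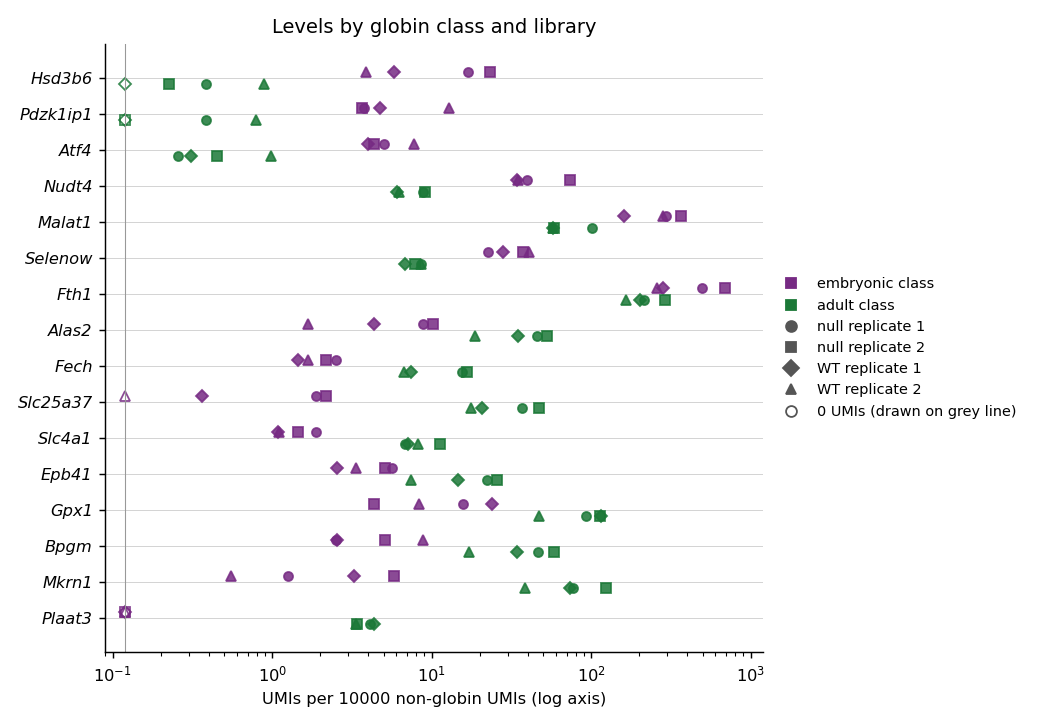
Levels of 16 genes (y axis) in UMIs per 10000 non-globin UMIs (x axis, log scale) in the embryonic (purple) and adult (green) class of each library, with 0 UMIs drawn as open symbols on the grey line. From Hsd3b6 to Fth1 the embryonic class was higher, and from Alas2 to Plaat3 lower, in each library.

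The differences between classes were called more often among members with high globin. With only members of at least 50% globin, 128 of 291 genes (44%) were called, 59 higher (20.3%) and 69 lower (23.7%), and without the 6 members that held endothelial or mural UMIs 124 of 344 (36%), 52 higher (15.1%) and 72 lower (20.9%). All 73 of the 77 genes still tested at 50% kept their call. The list counts were the same at 50% for heme synthesis, membrane, redox and iron handling, and 5 late maturation genes were tested and fell, 4 of them passing the filter through the adult class alone. Of the 136 genes that passed it in both classes, 52 were higher and 12 lower. The total was 32 genes without null 2 and 119 without WT 2.

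A pair of gene families was chosen after their values were seen. Of 77 ribosomal protein genes tested, 11 were higher and none lower in the embryonic class, beside 6.46% higher over all 387 genes, with a median log2 change of 0.37 beside -0.06 over all genes, and at 50% globin 38 of 76 were higher and none lower, beside 20.3% higher over all. Their summed level was 1775, 2319, 1970 and 1904 against 1437, 1636, 1661 and 1904, so that WT 2 showed no difference over all members. The members of WT 2 with endothelial or mural UMIs were of the adult class. Without them the level over both classes of WT 2 was 1666 in place of 1904. Of 9 mitochondrially encoded genes 1 was lower, near the 13.4% over all genes, and at 50% globin 8 of 8, beside 23.7%. The summed level was 310, 236, 447 and 162 against 441, 368, 619 and 627, lower in the embryonic class in 4 of 4 libraries. Without the members holding endothelial or mural UMIs, the level over both classes fell from 567 to 288 in WT 1 and from 556 to 328 in WT 2. Of 8 mitochondrially encoded genes tested there 4 were lower in the embryonic class, beside 20.9% over all genes.

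Whether the class difference itself changed with genotype was tested as an interaction, added after the data were seen. None of 387 genes was called by edgeR, with 21 at an unadjusted p under 0.05, and none of 344 (19) without the members holding endothelial or mural UMIs. At 50% globin 7 of 291 were called, all mitochondrially encoded (mt-Atp6, mt-Co1, mt-Co2, mt-Co3, mt-Cytb, mt-Nd1 and mt-Nd4), 25 having an unadjusted p under 0.05.

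The comparison of genotypes asked how erythroid cells in tissue without St18 differ from WT. Over all members edgeR's quasi-likelihood test called 147 of 1270 genes (11.6%), of which 40 (3.15%) were higher and 107 (8.43%) lower in the libraries labelled null. Of the 371 genes that passed the low-count filter through WT alone 105 were lower and none higher, and of the 632 that passed in both genotypes 25 were higher and 2 lower. The genes that fell included 6 endothelial and 2 mural markers, given below. Without the 6 members holding endothelial or mural UMIs, 0 of 738 genes were called, with 18 at an unadjusted p under 0.05, and with members of at least 50% globin 1 of 646 (0.155%), with 44. Of the 147 called genes, 38 and 33 still had enough UMIs to be tested there, all with the same sign. DESeq2 called 46 of 1270.

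The 6 endothelial and 2 of the 4 mural markers were tested, each passing the filter through WT alone, and were lower in null, a direction that the filter fixes. Their summed levels were 0.106 and 1.55 in null against 27.1 and 22.1 in WT for the endothelial list, and 0 and 0.172 against 13.8 and 6.46 for the mural list. Among the 10 largest falls were Itm2a, Apod, Gng11, Vtn, Bgn, Nid1, Mmp9, Higd1b and Cd93, each at 0 UMIs in both null libraries. These genes passed the filter through WT alone as well. Itm2a, a membrane protein, was at 6.97 and 3.94 in WT, at least 26.7-fold higher against a floor of 3 UMIs over the null members. Apod, apolipoprotein D, was at 7.18 and 3.02, at least 24.5-fold. These levels came from few barcodes. Itm2a gave UMIs in 4 members of the adult class and 1 of the embryonic class, and Apod in 5 and 1. The genes that fell include Vtn, Nid1 and Bgn, of the matrix around vessels, and Higd1b, of pericytes.

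Several red cell genes were called higher in null over all members, and none of them at 50% globin or without the members holding endothelial or mural UMIs. For heme synthesis these were Fech and Alas2 (2 of 5 tested), and for iron Slc25a37 (1 of 5). Epb41 was called for the membrane (1 of 6), Bpgm for redox (1 of 6) and Ube2o and Riok3 for late maturation (2 of 6). Of the iron genes Tfrc, the transferrin receptor, was lower in null. It passed the low-count filter through WT alone, which fixes that direction. Over all tested genes 3.15% were higher and 8.43% lower. Fech, Alas2, Slc25a37, Epb41 and Bpgm also missed the threshold without WT 1 or without WT 2. Alas2 had a log2 change of 1.11 (SE 0.38, edgeR adjusted p = 0.0385) over all members. It missed the threshold in 10 of 13 alternatives, other scalings, DESeq2 and no low-count filter among them, and Bpgm in 8 of 13. At 50% globin its levels were 57.1 and 44.7 in null against 37.3 and 37.0 in WT (log2 change 0.52, edgeR adjusted p = 0.733). The summed heme list was 66.7 and 64.6 against 40.5 and 31.8 over all members, without overlap, 95.4 and 67.1 against 57.5 and 71.8 at 50% globin and 66.7 and 67.01 against 63.8 and 51.6 without those members.

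**Figure D5:**
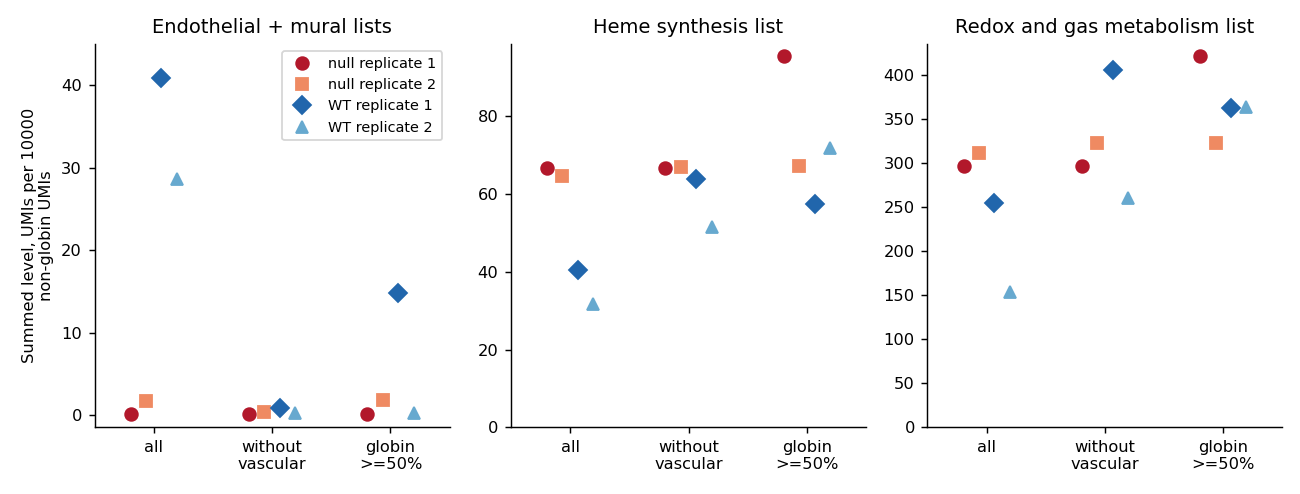
Summed levels in UMIs per 10000 non-globin UMIs (y axes) of the endothelial and mural lists, the heme synthesis list and the redox and gas metabolism list in each library, over all members, without the 6 members holding endothelial or mural UMIs, and over members with at least 50% globin (x axis). Over all members the heme list does not overlap between genotypes, and at 50% globin WT 2, at 71.8, lies between the null libraries at 67.1 and 95.4.

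The 10 largest gains in null were Dlx1, Lhx6, E2f2, Dlx2, Zbtb20, Hist1h1c, Dlx6os1, Ube2o, AY036118 and Nsd2. All of them but Ube2o and AY036118 passed the low-count filter through null alone, where they are high. Of the 117 genes that passed that way 15 were higher and none lower. Dlx1, a homeobox factor of ventral forebrain neurons, was at 4.03 and 1.55 against 0.327 and 0.671 (log2 change 2.55, SE 0.55, edgeR adjusted p = 1.06e-04), and in the other barcodes at 4.14 to 6.30. Of the 8 listed neuronal markers 3 passed the filter through null alone, Lhx6 and Dlx6os1, which were called, and Dcx, which was not. Over all tested genes 3.15% were higher. Stmn2 and Tubb3, which passed in both genotypes, were not called. Each of the 10 lost its call under some alternative, Dlx1 in 2 of 10 (by DESeq2 and without null 1) and Ube2o in 3 of 13. These counts cover only the alternatives in which a gene was tested. Dlx1, E2f2 and Nsd2 were not tested at 50% globin or without the members holding endothelial or mural UMIs. Lhx6, Dlx6os1, Dlx2 and Zbtb20 were not tested at 50% globin. The settings that removed the other calls thus could not remove these. E2f2 missed the threshold in 9 of 10 and Lhx6 in 7 of 12, both without any 1 of the 4 libraries among them. Dlx6os1 missed it in 7 of 12, Dlx2 in 6 of 12, Zbtb20 in 5 of 12, Nsd2 in 6 of 10, and Hist1h1c and AY036118 in 6 of 13. The summed neuronal list in members was 16.7 and 13.8 in null and 7.40 and 10.7 in WT, and 37.8 to 40.3 in the other barcodes. Without the members holding endothelial or mural UMIs it was 16.7 and 13.9 in null against 11.98 and 19.03 in WT, and at 50% globin 17.5 and 12.2 against 7.13 and 13.8, so that the genotypes overlapped in both. The part of free or co-captured neuronal RNA in these calls was not tested.

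Hsd3b6 was the gene called at 50% globin, and it passed the low-count filter there through null alone, where it is high. Of the 78 genes that passed that way 1 was higher, and of the 415 that passed in both genotypes none was called. Over members with at least 50% globin Hsd3b6 was at 3.78 and 5.90 in null and at 0.973 and 0.223 in WT, without overlap (log2 change 2.92, SE 0.58, edgeR adjusted p = 4.06e-04). Over all members it was at 3.18 and 5.68 against 1.74 and 1.34 (log2 change 1.63, edgeR adjusted p = 0.00466), and without the members holding endothelial or mural UMIs at 3.18 and 5.90 against 1.22 and 1.07 (log2 change 2.01, edgeR adjusted p = 0.245). As shown above it was mostly in the embryonic class, of which 6, 7, 5 and 4 members remained at 50% globin.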

How the data were processed

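The deposited matrices hold UMI counts of all barcodes, made by the authors with Cell Ranger (5.0.1 in the submitters' processing notes, 4 in the matrix headers) on GRCm38. The members, gene lists and tests were chosen with earlier results of these data known.

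From these counts, barcodes were selected as described (Python 3.11.15, scipy 1.17.1) and summed per library, or per library and globin class, without the 7 globins. The sums were tested with edgeR 4.0.16 (quasi-likelihood, TMM, filterByExpr, adjusted p 0.05; R 4.3.3), with DESeq2 1.42.0 as an alternative. This was checked on simulated counts of all members with known changes put in. Genes changed by a log2 of 1 were called in 23.4% of cases between genotypes and 22.2% between classes. With a log2 of 2 these were 87.1% and 96.6%. Library values were compared by exact permutation tests. Intervals cover counting error only. Other alternatives changed the UMI minimum, globin and mitochondrial shares, scaling, low-count filter, class line and block, or left out a library.

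Named genes were the globins, Alas2, St18, the 3 highest of each erythroid list, list genes under 3 UMIs, the 12 unlisted genes with the largest fold over other barcodes, and up to 10 per direction of each test with all libraries on 1 side. Gene coordinates are those of GENCODE, to which 99.6% of gene identifiers matched. Upstream sequences are from RefSeq. The embryonic hemoglobin gene Hbb-bh1 has no sequence shown. Some genes that the rule would name are not reported here.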

Additional observations from a re-analysis of the deposited data

Results flagged for a closer look

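In WT replicate 2, 12 eligible barcodes outside the erythroid set held 5.57% to 12.2% globin, where the other 3 libraries had 1, 0 and 0 barcodes between 5% and 20%. They were noticed because this signal lies outside the members. They held 8728 to 16459 UMIs, with 5006 UMIs of Hbb-bs and 4 of Hbb-y, and 2 UMIs of endothelial or mural markers. Their non-globin profiles were alike, with a chi-square statistic per degree of freedom of 1.23 over 336 genes against 3.50 over 334 genes in barcodes of nearest depth. Sst, the somatostatin gene of interneurons, was at 13.2 UMIs per 10000 in them and 1.10 in the other barcodes of the library. What sets them apart was not tested.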

How the results depend on the processing

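No paired analysis was possible because the labels give the libraries no replicate numbers, and the numbers used here follow accession order and only name a library. The null minus WT difference in the erythroid share of barcodes (0.0372 percentage points) turned to -0.0162 with a mitochondrial limit of 20% and ranged from -0.0418 to 0.116 when 1 library was left out. That in the embryonic share of globin UMIs (0.136) turned to -0.152 with beta-like globins alone and ranged from -0.454 to 0.727. That in the share of members in the embryonic class (0.615) ranged from -1.56, without null replicate 2, to 2.79, without null replicate 1. The 147 genes called between genotypes became 46 by DESeq2, 1 at 50% globin, 0 without members holding endothelial or mural UMIs, and 65 to 172 with 1 library left out (65 without WT replicate 1, 67 without WT replicate 2). Library totals without TMM gave 14 higher and 96 lower in place of 40 and 107, and moved the median log2 change of all genes from -0.02 to -0.13. The 77 genes called between classes became 135 with no low-count filter (7 higher and 128 lower in place of 25 and 52, with a median log2 change of -0.95 over all genes in place of -0.06), 128 at 50% globin, 124 without members holding endothelial or mural UMIs, and 32 to 119 with 1 library left out (32 without null replicate 2, 45 without null replicate 1, 119 without WT replicate 2). Without that filter the change of Ftl1 turned to -0.62. The interaction went from 0 to 7 genes at 50% globin. The cause of these changes was not tested. The settings without those members and the interaction were chosen after seeing the data. Of single-gene values between genotypes, 208 kept their side of the threshold and 95 lost it. Between classes 427 kept it and 18 lost it. The alpha-like and Hbb-bt shares kept their direction in all 10 alternatives each.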
